A study of Mus musculus with 12 samples.

Results

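The 48 genes described here are those by which macrophages, dendritic cells and other phagocytes are commonly recognised, together with the receptors, adhesion molecules and enzymes that such cells use. They were chosen by name: a probe set belonged to the group when its annotated gene symbol was one of the 48. This gave 84 of the 34945 probe sets with 1 gene symbol, and all 48 genes, of 18193 genes in all, had at least 1 probe set. RNA came from the kidney cortex of 2 mouse strains: ICGN, which was bred out of ICR and carries the label nephrotic syndrome, and ICR itself, labelled normal. Both strains were sampled at 4 and at 8 weeks of age, which gives 4 groups of 3 arrays, 12 in all (Affymetrix Mouse Genome 430 2.0), and the labels name no treatment. ICGN mice are known to carry a mutation of Tns2, the gene of an adhesion protein of podocytes. The groups compare whole strains, so this mutation and every other allele that separates ICGN from ICR cannot be told apart. The labels number the replicates but do not say how many mice each array held, so each p-value reflects only how far these samples spread.

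Macrophages and dendritic cells belong to the mononuclear phagocytes, which are replenished from monocytes or by division in the tissue and depend on signals through the CSF1 receptor or FLT3. In the healthy kidney they form a network in the interstitium between the tubules, where they take up debris and filtered antigen, and they accumulate in many forms of glomerular and tubular disease. Several of the genes, such as Ptprc, are shared with lymphocytes, and a few, such as Cyba, Mertk, Fcgr2b and Axl, are also made by cells that are not leukocytes. In whole cortex, more cells of a type and more RNA per cell cannot be told apart.

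Levels are the authors' MAS5 signals, rescaled here so that every array had the same median, 40.4. Signals compare arrays for one probe set; they do not rank genes against each other. A gene was tested when its probe set lay above the median of its own array in at least 3 of the 12 arrays, which left 12385 genes. Of the 48 genes, 41 were tested. Itgam, Trem2, Cd163, Siglec1, Chil3 and Arg1 were at or below the array median in all 12 arrays, and Gpnmb also missed the filter. Differences are given on the log2(signal + 11) scale with the standard error of the fit, relative to the median difference of all tested genes, and the offset of 11 understates the change of dim genes. A gene was called when limma's moderated test gave an adjusted p of 0.05 or less over all 12385 genes. Where probe sets of a gene are given apart, their values come from a second limma fit, over all 24790 probe sets past the filter. That fit had its own adjustment, so a probe set can differ slightly from the gene it stands for. In the strain comparisons, rose and fell are used of called genes, with ICGN set against ICR of the same age. The median gene itself differed by -0.0182 at 4 weeks and by -0.184 at 8 weeks before it was subtracted, while the tests are on the differences before subtraction. Arrays of 1 group correlated at 0.978 to 0.989 across genes. The proximal tubule genes Slc34a1, Lrp2, Cubn, Slc5a2, Slc22a6, Aqp1 and Slc5a12 all passed the filter, with summed signals of 35705 to 46357 in ICR and 30717 to 40239 in ICGN at 4 weeks, and 42763 to 48719 and 25584 to 32317 at 8 weeks. This is the labelled tissue, and the sum of the tubule genes was lower in every ICGN than in every ICR array at 8 weeks.

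At 8 weeks, 33 of the 41 tested genes rose in ICGN, 28 of them at least 2-fold. Among all genes, 8.49% were called higher and 26.0% lower at that age. The median difference of the 41 genes was 1.32. Large differences were those of Mpeg1, a pore-forming protein of macrophages, at 2.27 ± 0.19 or 4.81-fold, Lst1, a membrane protein of myeloid cells, at 2.26 ± 0.26, and Ms4a7, a membrane protein of tissue macrophages, at 2.17 ± 0.19. These 3 differences, and that of Chil4, a chitinase-like protein, at 2.06 ± 0.52, lie within about a standard error of each other and have no order. Over the alternatives, arrays left out not counted, Mpeg1 ranged from 2.05 to 2.35, Lst1 from 1.43 to 2.94, Ms4a7 from 1.59 to 2.50 and Chil4 from 1.17 to 3.57. Cyba and Mertk were called lower, and 6 genes were not called: Laptm5, Csf1r, Fcgr2b, Msr1, Sirpa and Flt3. For 36 of the 41 genes all 3 ICGN arrays lay above all 3 ICR arrays, and for 2, Cyba and Mertk, all lay below. Over all genes these shares were 11.2% and 33.3%. Scaling moved the split of all genes, 1052 higher and 3225 lower here, to 1698 and 1669 under quantile normalisation, 1586 and 2421 when centred on the median of tested genes, and 2229 and 1487 under the authors' own scaling. The 33 rises among the 41 genes became 34, 35 and 36 under these, and the 2 lower calls became 0, 1 and 0.

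At 4 weeks, 11 of the 41 genes rose in ICGN, against 1.60% of all genes, and 0 fell, against 1.39%. By the unadjusted p of the same limma test, 25 were higher and 1 lower at 0.05. The 11 were Ptprc, Cd52, Lcp1, Mpeg1, Ms4a7, Aif1, Itgal, Cybb, Fcgr3, Tyrobp and Chil4, and 7 of them differed at least 2-fold. All 11 also rose at 8 weeks, which is 100% of the 4-week calls and 33.3% of the 8-week calls. Over all genes, 124, or 1.00%, were called higher at both ages, 62.6% of the 4-week and 11.8% of the 8-week calls. The median difference of the 41 genes was 0.59 at 4 weeks. The arrays did not overlap, with ICGN above, for 27 of the 41, against 10.8% of all genes. Leaving out either ICGN replicate 1 or ICGN replicate 3 at 4 weeks reduced the 11 calls to 7, with Ptprc, Aif1, Itgal and Tyrobp lost in both cases. Each of these 4 lost its 4-week call for 4 or 5 of the 6 arrays left out in turn, and the other 7 for none.

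Some genes passed the filter only through their ICGN arrays, so the counts over 41 genes were also taken without any filter. Lcp2, Ms4a7, Aif1, Cd86 and Chil4 were at or below the array median in all 6 ICR arrays. With every gene of the array tested, 32 of the 48 were called higher and 2 lower at 8 weeks, with a median difference of 1.13. Of all 18193 genes, 989 were then called higher and 2945 lower. At 4 weeks 8 of the 48 were called higher and 0 lower, with a median of 0.50, against 144 and 129 of all genes.

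After the scaling used here, 1 array stood above its group for these genes. ICGN replicate 3 at 8 weeks was the highest of its 3 arrays for 35 of the 41 genes and above the group mean for 40. Its deposited median was the lowest of its group, 87.0 against 108 and 95.1, so the scaling used here lowered it least. How much of its high position comes from the scaling was not tested, and the same counts over all genes were not taken. Without this array, 28 of the 41 genes rose at 8 weeks, 2 were called lower, and the median difference was 1.21. Over all 12385 genes, 745 were then called higher and 3507 lower. Spi1, Fcgr4, Cd86, Batf3 and Chil4 were the genes of the 41 whose call was lost. At 4 weeks ICGN replicate 3 was the highest of its group for 29 of the 41, and its deposited median was again the lowest, 18.5 against 19.0 and 19.0.

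**Figure D1:**
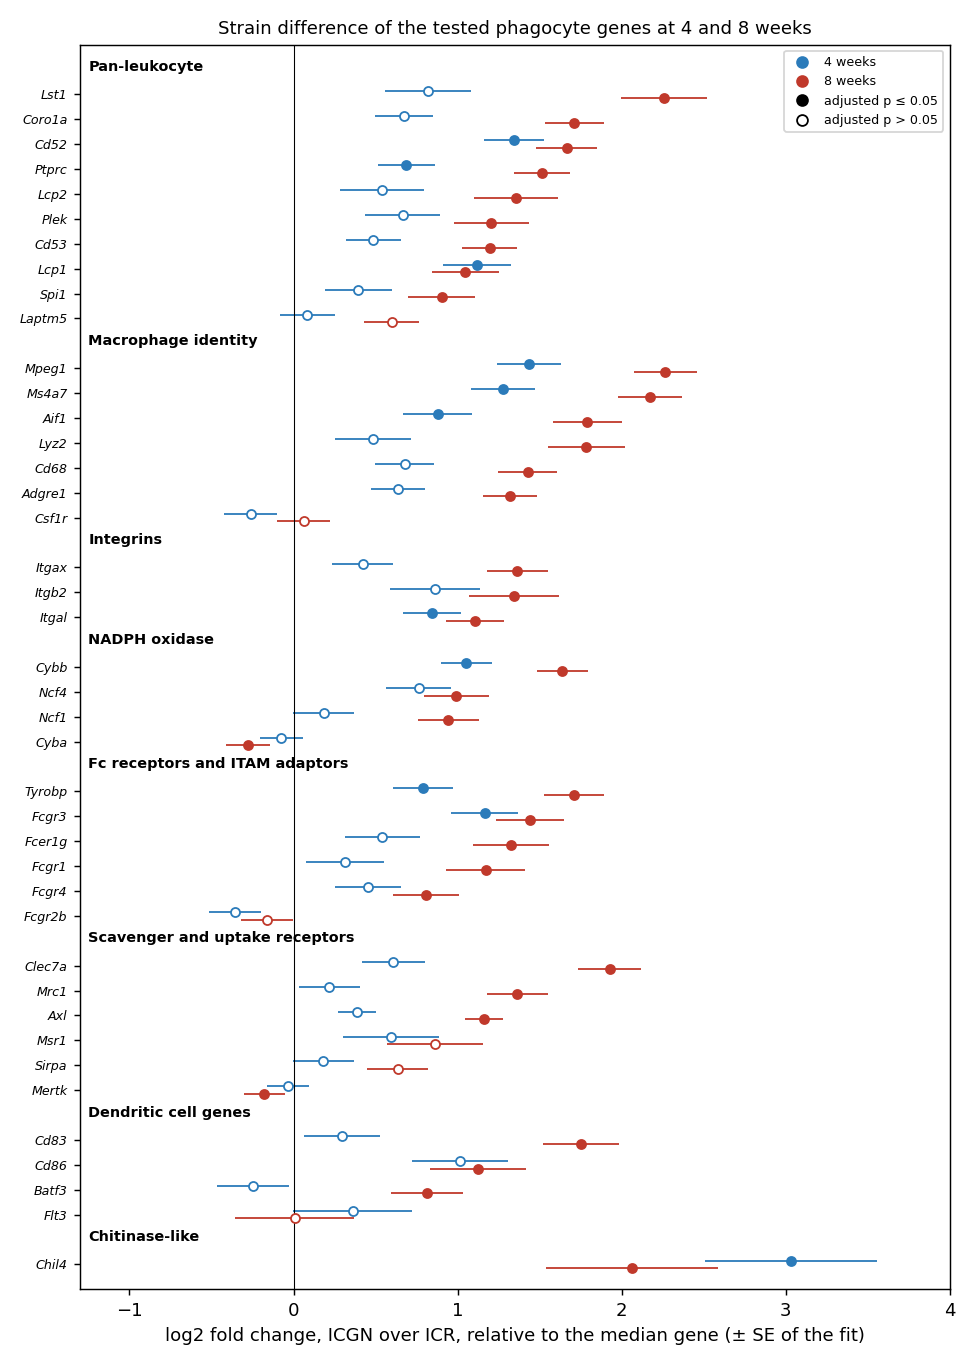
Strain difference of each of the 41 tested genes, ICGN over ICR, as log2 fold change relative to the median gene (horizontal axis, ± SE of the fit), at 4 weeks (blue) and 8 weeks (red), 3 arrays per group. Filled points have an adjusted p of 0.05 or less. The 8-week points lie to the right of the 4-week points for 36 of the 41 genes, while Csf1r, Fcgr2b, Cyba, Mertk and Flt3 lie between -0.28 and 0.06 at 8 weeks.

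The 250 bases before to 50 bases after the annotated start were found for 33 of the 48 genes in the RefSeq promoter table of mouse build GRCm38.p6. These windows were searched for the core of the site read by PU.1, the product of Spi1 and the factor on which macrophage development depends. The 8 letters GAGGAAGT, on either strand, were present in 2 of the 33 genes, Cd53 and Fcgr4, that is 6.06%, against 3.69% of all 27025 genes with a window. The shorter GAGGAA, which the 8 letters contain, was present in 18 of the 33, or 54.5%, against 31.3% of all genes. The windows of Cd53 and Fcgr4 are printed because they alone hold the longer match, and that of Clec7a because it had the lowest adjusted p, of the 41 genes, for a change of its strain difference with age. Each runs 5′ to 3′ on the gene's own strand, and capitals mark GAGGAA, or GAGGAAGT where the match is complete, on either strand (ACTTCCTC is GAGGAAGT read on the other strand). A match is a run of letters only and shows no binding, and its part in the strain differences was not tested. Cd53 lies on the minus strand at chr3:106790100-106790399, Fcgr4 on the plus strand at chr1:171018676-171018975 and Clec7a on the minus strand at chr6:129472730-129473029.
Cd53: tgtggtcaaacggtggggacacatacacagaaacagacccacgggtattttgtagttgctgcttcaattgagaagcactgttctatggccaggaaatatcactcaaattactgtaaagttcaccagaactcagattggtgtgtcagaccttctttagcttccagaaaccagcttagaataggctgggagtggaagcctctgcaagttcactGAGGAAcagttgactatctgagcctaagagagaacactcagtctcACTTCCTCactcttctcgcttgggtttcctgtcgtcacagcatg
Fcgr4: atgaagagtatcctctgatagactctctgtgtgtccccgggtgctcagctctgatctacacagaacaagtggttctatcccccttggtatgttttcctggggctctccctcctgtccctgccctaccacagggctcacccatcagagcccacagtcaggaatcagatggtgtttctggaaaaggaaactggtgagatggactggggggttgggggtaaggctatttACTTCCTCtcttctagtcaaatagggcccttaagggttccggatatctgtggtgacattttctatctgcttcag
Clec7a: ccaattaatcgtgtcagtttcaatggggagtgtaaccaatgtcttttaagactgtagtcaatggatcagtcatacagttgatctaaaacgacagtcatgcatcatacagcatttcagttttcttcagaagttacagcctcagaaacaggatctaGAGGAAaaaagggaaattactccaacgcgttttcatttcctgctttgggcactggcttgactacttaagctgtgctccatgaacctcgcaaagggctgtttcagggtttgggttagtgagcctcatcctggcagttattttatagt

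The first of the groups by role holds 10 genes that most leukocytes express. Of these, 9 rose at 8 weeks and 3 at 4 weeks, with median differences of 1.28 and 0.67. Ptprc, the gene of the common leukocyte antigen CD45, had signals of 175, 117 and 153 in ICR and 221, 232 and 269 in ICGN at 4 weeks, and 235, 154 and 238 in ICR and 476, 556 and 569 in ICGN at 8 weeks. The ICGN arrays lay above the ICR arrays at both ages. Ptprc rose by 0.69 ± 0.17 (adjusted p = 0.0464) at 4 weeks and by 1.51 ± 0.17 (adjusted p = 6.16e-05) at 8 weeks. In the limma fit over probe sets it was not called at 4 weeks (adjusted p = 0.0615). Cd52, a small surface glycoprotein of leukocytes, had signals of 97.7, 82.7 and 78.2 in ICR and 213, 189.8 and 308 in ICGN at 4 weeks, and 149.9, 186 and 223 in ICR and 523, 457 and 635 in ICGN at 8 weeks. It was separated between the strains at both ages and rose by 1.35 ± 0.18 (adjusted p = 0.00097) and 1.66 ± 0.18 (adjusted p = 4.7e-05). Coro1a encodes the actin-binding coronin of blood cells. Its signals were 109.9, 85.2 and 82.5 in ICR and 142, 135 and 179 in ICGN at 4 weeks, and 95.2, 88.9 and 123 in ICR and 339.7, 241 and 374 in ICGN at 8 weeks. The ICR arrays of the 2 ages overlapped and all ICGN arrays were higher, with differences of 0.67 ± 0.18 (adjusted p = 0.0653) at 4 weeks and 1.71 ± 0.18 (adjusted p = 3.02e-05) at 8 weeks, the latter called.

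Lst1 had signals of 56.5, 29.0 and 41.7 in ICR and 66.6, 74.2 and 103 in ICGN at 4 weeks, and 12.5, 28.5 and 9.80 in ICR and 112, 91.7 and 103 in ICGN at 8 weeks. The 3 ICR arrays at 8 weeks were the lowest of the 12. Lst1 rose by 2.26 ± 0.26 (adjusted p = 5.58e-05) at 8 weeks, and its 4-week difference was 0.82 ± 0.26 (adjusted p = 0.13). Spi1, the gene of PU.1, had signals of 55.4, 65.0 and 51.4 in ICR and 75.6, 79.7 and 76.8 in ICGN at 4 weeks, and 38.7, 50.9 and 69.2 in ICR and 83.8, 77.6 and 120.1 in ICGN at 8 weeks. The strains did not overlap at either age, and Spi1 rose at 8 weeks by 0.90 ± 0.20 (adjusted p = 0.0132), 1.87-fold, against 0.40 ± 0.20 (adjusted p = 0.416) at 4 weeks. Without ICGN replicate 3 or ICR replicate 1 at 8 weeks, the Spi1 call was lost.

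Of the others in this group, the actin-bundling gene Lcp1 rose by 1.12 (adjusted p = 0.00816) at 4 weeks and 1.05 (adjusted p = 0.00514) at 8 weeks. Its dimmer probe set was not called at 4 weeks, at 0.56 (adjusted p = 0.2), and was called at 8 weeks, at 0.79 (adjusted p = 0.0217). Cd53, a tetraspanin of leukocytes, rose by 1.19 (adjusted p = 4e-04), Lcp2, the adaptor SLP-76, by 1.36 (adjusted p = 0.00285) and Plek, a substrate of protein kinase C, by 1.21 (adjusted p = 0.00349), all at 8 weeks only. Laptm5, a lysosomal membrane protein of blood cells, was not called, at 0.60 (adjusted p = 0.0673), although its arrays did not overlap at 8 weeks. Of the 9 genes with more than 1 probe set past the filter, it was the 1 whose probe sets disagreed on the 8-week call: of its 4, those at 1.15 and 1.98 at 8 weeks were called and those at 0.56 and -0.18 were not. The probe set at 0.56 is that which stood for the gene, at 0.60 in the fit of genes. At 4 weeks the probe sets of 3 of these 9 genes disagreed, namely Laptm5, Lcp1 and Cybb.

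Of the 7 genes that identify macrophages, 6 rose at 8 weeks and 3 at 4 weeks. Adgre1, the gene of the macrophage surface protein F4/80, had signals of 81.7, 119 and 99.3 in ICR and 164, 136 and 175 in ICGN at 4 weeks, and 109, 88.8 and 129 in ICR and 248, 222 and 284 in ICGN at 8 weeks. ICGN lay above ICR at both ages, by 0.64 ± 0.17 (adjusted p = 0.058) at 4 weeks and by 1.32 ± 0.17 (adjusted p = 0.000154) at 8 weeks, where it was called. Cd68, a lysosomal glycoprotein of phagocytes, had signals of 65.5, 55.8 and 39.5 in ICR and 85.4, 79.9 and 105 in ICGN at 4 weeks, and 59.6, 58.0 and 58.2 in ICR and 147, 134 and 185 in ICGN at 8 weeks. The strains were again separate at both ages, with 0.68 ± 0.18 (adjusted p = 0.0672) and, called, 1.43 ± 0.18 (adjusted p = 0.000159).

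Mpeg1, the gene of perforin-2, had signals of 70.8, 89.5 and 100.2 in ICR and 217, 252 and 279 in ICGN at 4 weeks, and 179.6, 121 and 213 in ICR and 720.1, 619 and 922 in ICGN at 8 weeks. Every ICGN array exceeded every ICR array of its age, by 1.44 ± 0.19 (adjusted p = 0.000885) at 4 weeks and 2.27 ± 0.19 (adjusted p = 4.35e-06) at 8 weeks. Ms4a7 had signals of 31.2, 38.2 and 22.4 in ICR and 78.1, 89.8 and 95.1 in ICGN at 4 weeks, and 36.8, 31.7 and 32.0 in ICR and 170.5, 132 and 201 in ICGN at 8 weeks, rising by 1.28 ± 0.19 (adjusted p = 0.00201) and 2.17 ± 0.19 (adjusted p = 6.51e-06). All its ICR values were at or below the array median of 40.4, so the size of these differences rests on dim ICR signals. Lyz2, the lysozyme of macrophages and other myeloid cells, had signals of 249, 378 and 174 in ICR and 343, 281 and 466 in ICGN at 4 weeks, and 282, 215 and 335 in ICR and 827, 800.4 and 927 in ICGN at 8 weeks. The strains overlapped at 4 weeks and were separate at 8 weeks, where Lyz2 rose by 1.78 ± 0.23 (adjusted p = 0.000157), against 0.48 ± 0.23 (adjusted p = 0.377) at 4 weeks. Aif1, the gene of the calcium-binding protein IBA1, rose by 0.88 (adjusted p = 0.0372) and 1.79 (adjusted p = 6.78e-05).

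Csf1r, the receptor for the growth factors CSF1 and IL-34, stood apart from the other 6. Its signals were 1618, 1519 and 1225 in ICR and 1135, 1226 and 1203 in ICGN at 4 weeks, and 1655, 2018 and 2725 in ICR and 1870.2, 1776 and 2123 in ICGN at 8 weeks. The strains overlapped at both ages. The difference was -0.26 ± 0.16 (adjusted p = 0.46) at 4 weeks and 0.06 ± 0.16 (adjusted p = 0.58) at 8 weeks, with a 95% interval of -0.28 to 0.40 at 8 weeks that lies below the difference of each of the other 6. None of the 3 Csf1r probe sets that passed the filter was called in a strain comparison.

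**Figure D2:**
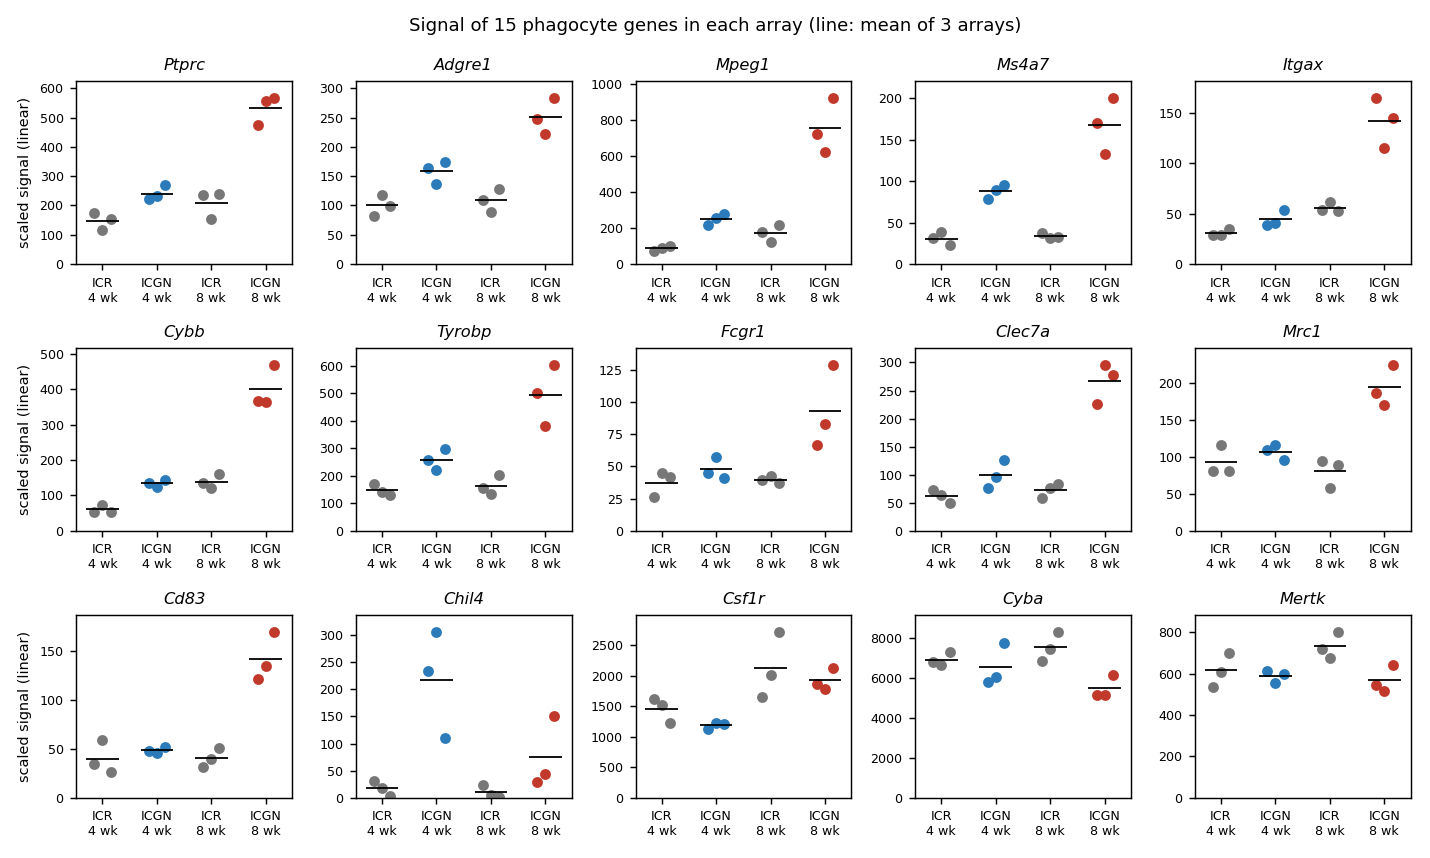
Signal of 15 of the genes in each of the 12 arrays, scaled to a common array median (vertical axis, linear, starting at 0), by group; points are arrays and the line is the mean of 3. In Ptprc, Adgre1, Mpeg1, Ms4a7, Itgax, Cybb, Tyrobp and Clec7a, the 3 ICGN arrays at 8 weeks lie above the 9 others, while in Csf1r the strains overlap at both ages and in Cyba and Mertk the ICGN arrays at 8 weeks lie below the ICR arrays of that age.

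The leukocyte integrins pair the beta chain Itgb2 (CD18) with an alpha chain. The 3 tested integrin genes all rose at 8 weeks, and Itgal also rose at 4 weeks. Itgax, the alpha chain CD11c carried by dendritic cells and many kidney macrophages, had signals of 28.8, 28.5 and 34.7 in ICR and 38.9, 40.4 and 53.6 in ICGN at 4 weeks, and 53.9, 61.2 and 52.3 in ICR and 165, 115 and 145 in ICGN at 8 weeks. The strains did not overlap at either age. Itgax rose by 1.36 ± 0.19 (adjusted p = 0.000291) at 8 weeks, and the 4-week difference was 0.42 ± 0.19 (adjusted p = 0.321). Itgam, the alpha chain CD11b, was at or below the array median throughout and was not tested. Its signals were 14.1, 3.78 and 7.58 in ICR and 14.4, 18.4 and 17.0 in ICGN at 4 weeks, and 22.1, 6.84 and 27.1 in ICR and 23.5, 21.0 and 36.3 in ICGN at 8 weeks. Itgb2 rose by 1.35 (adjusted p = 0.00475) at 8 weeks and differed by 0.86 (adjusted p = 0.124) at 4 weeks. Itgal, the alpha chain of LFA-1, rose by 0.84 (adjusted p = 0.0171) and 1.11 (adjusted p = 0.00117).

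The phagocyte NADPH oxidase makes superoxide from a membrane pair, CYBB and CYBA, and cytosolic subunits that include NCF1 and NCF4. Its 4 genes parted at 8 weeks, with 3 called higher and 1 called lower. Cybb had signals of 53.7, 73.9 and 53.4 in ICR and 136, 123 and 145 in ICGN at 4 weeks, and 135, 121 and 161 in ICR and 367, 364 and 469 in ICGN at 8 weeks. ICGN lay above ICR at both ages, and Cybb rose by 1.05 ± 0.16 (adjusted p = 0.00167) at 4 weeks and 1.64 ± 0.16 (adjusted p = 1.37e-05) at 8 weeks. All 3 of its probe sets were called at 8 weeks. At 4 weeks 1 of the 3 was, and the median of the probe sets was not. Ncf1 had signals of 43.8, 63.0 and 44.1 in ICR and 63.2, 45.5 and 64.0 in ICGN at 4 weeks, and 65.5, 60.7 and 49.6 in ICR and 99.5, 106 and 114 in ICGN at 8 weeks. Its strains overlapped at 4 weeks and were separate at 8 weeks, where Ncf1 rose by 0.94 ± 0.19 (adjusted p = 0.00595), against 0.18 ± 0.19 (adjusted p = 0.763) at 4 weeks. Ncf4 rose by 0.99 (adjusted p = 0.00561) at 8 weeks and differed by 0.76 (adjusted p = 0.0545) at 4 weeks.

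Cyba, whose product also serves the oxidases of cells that are not leukocytes, had signals of 6830.0, 6657 and 7324 in ICR and 5826, 6079 and 7746 in ICGN at 4 weeks, and 6844, 7480.1 and 8345 in ICR and 5144, 5159 and 6167 in ICGN at 8 weeks. At 4 weeks the strains overlapped. At 8 weeks all ICGN arrays were below all ICR arrays, and Cyba was called lower at -0.28 ± 0.13 (adjusted p = 0.0147). The 95% interval relative to the median gene, -0.56 to 0.00, includes 0, and the call was lost under quantile normalisation, under the authors' own scaling, and without ICGN replicate 2 or ICR replicate 3 of 8 weeks.

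Among the 6 tested Fc receptor and adaptor genes, 5 rose at 8 weeks and 2 at 4 weeks. Receptors for IgG bind antibody-coated targets, and the adaptors FCER1G and TYROBP carry the activating signal motif, called ITAM, on behalf of receptors that lack one. Fcgr1, the high-affinity receptor, had signals of 26.1, 44.8 and 41.5 in ICR and 45.1, 57.7 and 41.0 in ICGN at 4 weeks, and 39.6, 42.9 and 37.0 in ICR and 66.4, 83.0 and 129 in ICGN at 8 weeks. The strains overlapped at 4 weeks, and at 8 weeks ICGN was wholly above, with a rise of 1.17 ± 0.24 (adjusted p = 0.00544) against 0.31 ± 0.24 (adjusted p = 0.646) at 4 weeks. Tyrobp, the gene of DAP12, had signals of 171, 141 and 129 in ICR and 259, 221 and 298 in ICGN at 4 weeks, and 157, 133 and 202 in ICR and 499, 382 and 604 in ICGN at 8 weeks. ICGN exceeded ICR at both ages without overlap, and Tyrobp rose by 0.79 ± 0.18 (adjusted p = 0.0297) and 1.71 ± 0.18 (adjusted p = 3.22e-05).

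Trem2, a lipid receptor that signals through DAP12, was not tested. Its signals were 13.4, 1.94 and 2.04 in ICR and 3.63, 23.1 and 1.12 in ICGN at 4 weeks, and 17.6, 22.7 and 33.2 in ICR and 1.69, 10.8 and 8.48 in ICGN at 8 weeks. All 12 values were at or below the array median, so no direction is given. Fcgr3 rose by 1.17 (adjusted p = 0.00572) at 4 weeks and 1.44 (adjusted p = 0.000364) at 8 weeks, and Fcer1g by 1.32 (adjusted p = 0.00168) at 8 weeks. Fcgr4 rose by 0.81 (adjusted p = 0.0264) at 8 weeks. That call was lost without ICGN replicate 3 or any single ICR replicate of 8 weeks. Fcgr2b, the inhibitory receptor, which B cells and some endothelial cells also make, was not called, at -0.36 ± 0.16 (adjusted p = 0.27) and -0.16 ± 0.16 (adjusted p = 0.104). Its 4 passing probe sets were all uncalled in both strain comparisons, and the 95% interval at 8 weeks was -0.50 to 0.18.

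The uptake receptors bind sugars, modified lipoproteins, haemoglobin complexes or dying cells. Of the 9, 6 were tested. At 4 weeks 0 of these rose in limma, 2 being higher at an unadjusted p of 0.05, and at 8 weeks 3 rose and 1 was called lower. Clec7a, the gene of the beta-glucan receptor dectin-1, had signals of 71.9, 63.1 and 50.3 in ICR and 76.1, 96.0 and 127 in ICGN at 4 weeks, and 58.0, 76.0 and 82.6 in ICR and 227, 296 and 278 in ICGN at 8 weeks. The strains did not overlap at either age. Clec7a rose by 1.93 ± 0.19 (adjusted p = 1.6e-05) at 8 weeks, 3.80-fold, and differed by 0.61 ± 0.19 (adjusted p = 0.121) at 4 weeks. Mrc1, the mannose receptor, had signals of 81.5, 117 and 81.1 in ICR and 110.1, 117 and 95.5 in ICGN at 4 weeks, and 94.8, 58.4 and 89.0 in ICR and 187, 171 and 225 in ICGN at 8 weeks. At 4 weeks the strains overlapped, and at 8 weeks Mrc1 rose by 1.36 ± 0.19 (adjusted p = 0.000289), against 0.22 ± 0.19 (adjusted p = 0.705) at 4 weeks. Msr1, the class A scavenger receptor, had signals of 6.37, 24.7 and 18.3 in ICR and 27.1, 25.4 and 32.3 in ICGN at 4 weeks, and 56.4, 57.5 and 28.0 in ICR and 83.1, 67.7 and 88.4 in ICGN at 8 weeks. ICGN lay above ICR at both ages, yet neither difference was called, with 0.59 ± 0.29 (adjusted p = 0.384) and 0.86 ± 0.29 (adjusted p = 0.0837).

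Axl and Mertk are receptor tyrosine kinases that recognise dying cells through GAS6 and PROS1. Axl had signals of 251, 320.3 and 287 in ICR and 374, 362 and 378 in ICGN at 4 weeks, and 173, 184 and 182 in ICR and 338, 365 and 393 in ICGN at 8 weeks. The ICGN arrays were higher at both ages, and the ICR arrays were lower at 8 than at 4 weeks. Axl rose by 1.16 ± 0.12 (adjusted p = 3.02e-05) at 8 weeks and differed by 0.39 ± 0.12 (adjusted p = 0.11) at 4 weeks. Mertk had signals of 538, 611 and 700.2 in ICR and 615, 557 and 599.7 in ICGN at 4 weeks, and 718, 674 and 805 in ICR and 547, 517 and 642 in ICGN at 8 weeks. It was called lower at 8 weeks, at -0.18 ± 0.13 (adjusted p = 0.0384), with a 95% interval of -0.45 to 0.09 that includes 0 once the median gene is subtracted. The Mertk call was lost under quantile normalisation, centring on tested genes, the authors' scaling, a fit without the variance trend, a fit of the 2 groups alone, and without ICGN replicate 1, ICGN replicate 2, ICR replicate 1 or ICR replicate 3 at 8 weeks. In the limma fit over probe sets Mertk was not called at 8 weeks either (adjusted p = 0.0516).

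Sirpa, the receptor for CD47, was not called, at 0.18 (adjusted p = 0.763) at 4 weeks and 0.64 (adjusted p = 0.0724) at 8 weeks, with a 95% interval of 0.24 to 1.03 at 8 weeks. The 8-week call depended on the processing: Sirpa was called higher under quantile normalisation, centring on tested genes, the authors' scaling, the replicate block and with the 2 groups alone. Over all alternatives its adjusted p in limma ranged from 0.00806 to 0.35. Cd163, the receptor for haemoglobin bound to haptoglobin, was not tested, with signals of 11.1, 16.1 and 21.5 in ICR and 13.7, 9.72 and 0.39 in ICGN at 4 weeks, and 17.5, 7.90 and 27.5 in ICR and 15.3, 16.5 and 31.2 in ICGN at 8 weeks. Siglec1, the sialic acid receptor CD169, had signals of 13.9, 15.6 and 4.85 in ICR and 8.25, 12.8 and 2.49 in ICGN at 4 weeks, and 19.5, 7.28 and 2.34 in ICR and 17.1, 7.90 and 7.76 in ICGN at 8 weeks and was not tested either. Gpnmb, a lysosomal glycoprotein, ranged from 7.03 to 43.9 over the 12 arrays and the strains overlapped at both ages.

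Of the 4 dendritic cell genes, 3 rose at 8 weeks and 0 at 4 weeks, where 1 had an unadjusted p under 0.05 in limma. Cd83, a maturation marker, had signals of 34.7, 58.8 and 25.9 in ICR and 48.2, 45.2 and 51.9 in ICGN at 4 weeks, and 31.5, 39.7 and 50.9 in ICR and 122, 134 and 169.5 in ICGN at 8 weeks. The strains overlapped at 4 weeks, and at 8 weeks the 3 ICGN arrays stood above all 9 others. Cd83 rose by 1.75 ± 0.23 (adjusted p = 0.000183) at 8 weeks, against 0.29 ± 0.23 (adjusted p = 0.663) at 4 weeks. Batf3, a transcription factor of cross-presenting dendritic cells, had signals of 63.9, 62.8 and 105 in ICR and 70.5, 55.5 and 56.6 in ICGN at 4 weeks, and 59.5, 34.7 and 38.5 in ICR and 83.8, 67.7 and 68.6 in ICGN at 8 weeks. ICGN was wholly above ICR at 8 weeks, where Batf3 rose by 0.82 ± 0.22 (adjusted p = 0.0363), and the strains overlapped at 4 weeks, with -0.25 ± 0.22 (adjusted p = 0.651). The Batf3 call was lost with no filter, in a fit of the 2 groups alone, and without any single array of 8 weeks except ICR replicate 1. Flt3, the growth factor receptor of dendritic cell precursors, had signals of 17.8, 51.7 and 20.4 in ICR and 20.5, 46.8 and 52.5 in ICGN at 4 weeks, and 22.8, 49.4 and 28.6 in ICR and 23.3, 20.6 and 40.8 in ICGN at 8 weeks. The strains overlapped at both ages and neither difference was called, with 0.36 ± 0.36 (adjusted p = 0.744) and 0.01 ± 0.36 (adjusted p = 0.735). The 95% interval of Flt3 at 8 weeks, -0.76 to 0.78, is wide. Cd86, a costimulatory ligand, rose by 1.12 (adjusted p = 0.0221) at 8 weeks and differed by 1.02 (adjusted p = 0.0863) at 4 weeks, from ICR signals at or below the array median. Its call was lost without ICGN replicate 2, ICGN replicate 3 or ICR replicate 2 of 8 weeks.

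The last group holds 3 genes linked to alternative activation of macrophages, of which Chil4 alone was tested. Chil4, a chitinase-like protein without enzyme activity, had signals of 30.4, 18.3 and 3.72 in ICR and 233, 306 and 111 in ICGN at 4 weeks, and 24.3, 5.94 and 1.24 in ICR and 29.8, 44.3 and 151 in ICGN at 8 weeks. ICGN lay above ICR at both ages, by little at 8 weeks, where 1 ICGN array stood well above the other 2. Chil4 rose by 3.03 ± 0.52 (adjusted p = 0.00478) at 4 weeks and by 2.06 ± 0.52 (adjusted p = 0.0124) at 8 weeks. All 6 ICR signals were at or below the array median and Chil4 passed the filter through ICGN arrays only, so its size is poorly set: over the alternatives it ranged from 2.05 to 3.99 at 4 weeks and from 1.17 to 3.57 at 8 weeks. Its 8-week call was lost without ICGN replicate 3 or ICR replicate 3 of 8 weeks. Chil3 and Chil4 are near-identical copies, so the naming of the signal is uncertain. A probe set annotated to both had mean signals of 36.7 in ICR and 317 in ICGN at 4 weeks, and 14.5 and 82.5 at 8 weeks. The probe set of Chil3 alone had signals of 9.99, 1.42 and 6.05 in ICR and 4.17, 8.38 and 9.46 in ICGN at 4 weeks, and 1.58, 0.42 and 2.46 in ICR and 7.64, 8.24 and 5.15 in ICGN at 8 weeks. Arg1, the arginase of alternatively activated macrophages, had signals of 1.28, 1.56 and 1.93 in ICR and 0.78, 0.58 and 1.81 in ICGN at 4 weeks, and 1.08, 0.89 and 2.10 in ICR and 0.70, 1.08 and 0.96 in ICGN at 8 weeks. Both were at or below the array median throughout and were not tested.

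The strain difference was compared between the ages within 1 fit, as the 8-week minus the 4-week difference, to ask whether it grew with age. This value was called above 0 for 7 of the 41 genes and below 0 for none, by limma, against 2.21% and 5.68% of all genes. At an unadjusted p of 0.05, 18 were above and 0 below. The median over the 41 was 0.69 relative to the median gene, which itself shifted by -0.172, and 36 of 41 values were positive. The 7 were Clec7a at 1.32 ± 0.27 (adjusted p = 0.0201), Cd83 at 1.46 ± 0.33 (adjusted p = 0.0286), Axl at 0.78 ± 0.16 (adjusted p = 0.0346), Mrc1 at 1.15 ± 0.26 (adjusted p = 0.035), Lyz2, Coro1a and Lst1. Lyz2 reached 1.31 ± 0.33 (adjusted p = 0.0477), Coro1a 1.04 ± 0.25 (adjusted p = 0.0477) and Lst1 1.44 ± 0.37 (adjusted p = 0.0483). Chil4 had the opposite sign and was not called, at -0.96 ± 0.74 (adjusted p = 0.344).

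Clec7a alone of the 7 was called under every alternative run for it and with each array left out, its adjusted p lying between 0.0115 and 0.0479. The count of 7 fell to 1 without ICGN replicate 1 or replicate 2 of 4 weeks or ICGN replicate 3 of 8 weeks. It was 2 without ICGN replicate 3 or ICR replicate 2 of 4 weeks and 3 without ICGN replicate 1 of 8 weeks. Without ICR replicate 1 or 3 of 4 weeks, or ICR replicate 1 or 2 of 8 weeks, it was 4. Without any filter over the 48 genes it was 2, Clec7a and Axl, against 189 above 0 of all 18193 genes. Lyz2, Coro1a and Lst1 also lost the call with the median of probe sets and without the variance trend. In the limma fit over probe sets, 3 of the 7 were called, namely Clec7a, Cd83 and Mrc1. Axl, Lyz2, Coro1a and Lst1 were not called there, at an adjusted p of 0.0544 to 0.0668. The split of all genes, 274 above and 704 below, became 484 and 412 under quantile normalisation and 531 and 628 when centred, with 7 and 10 of the 41 genes above.

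**Figure D3:**
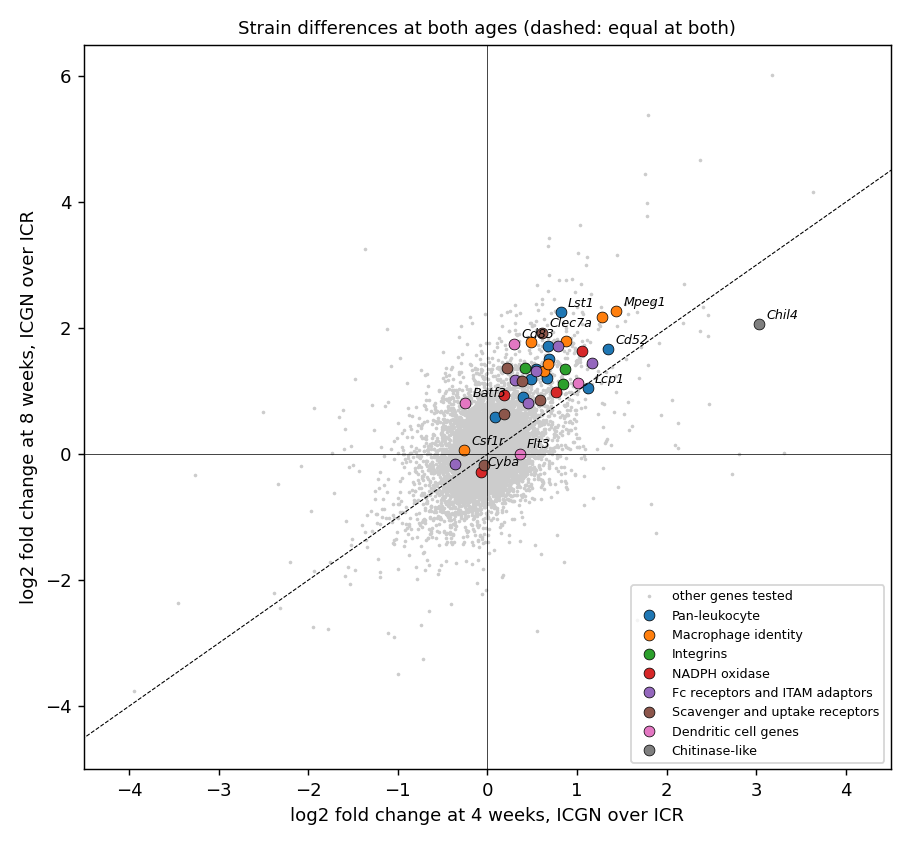
Strain difference at 4 weeks (horizontal axis) and at 8 weeks (vertical axis) of the 41 tested genes, coloured by role, and of all other tested genes (grey), each as log2 fold change of ICGN over ICR relative to the median gene; the dashed diagonal marks equal differences. 36 of the 41 genes lie above the diagonal, and Chil4 and, by its brighter probe set, Lcp1 are among the 5 below it.

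Within a strain, age and the authors' scaling cannot be told apart, since the 4-week arrays had been scaled to a trimmed mean of 100 and the 8-week arrays to 500. Each strain's change from 4 to 8 weeks is therefore given relative to the median gene. In ICR, 10 of the 41 genes were called higher at 8 weeks, against 18.0% of all genes, and 3 lower, against 10.7%, with a median of 0.11. The 10 included Msr1 at 1.02 (adjusted p = 0.0107), Cybb at 0.99 (adjusted p = 0.000149), Cd52 at 0.92 (adjusted p = 0.00088) and Csf1r at 0.44 (adjusted p = 0.022). Other Cybb probe sets were at 0.13 (adjusted p = 0.485) and -0.26 (adjusted p = 0.548) in limma. The Cybb call was lost when the median of its probe sets was taken. The 3 genes called lower were Lst1 at -1.05 (adjusted p = 0.0132), Batf3 at -0.75 (adjusted p = 0.0328) and Axl at -0.72 (adjusted p = 0.000876). Without ICR replicate 3 of 8 weeks the counts were 6 and 1. All genes split into 1720 higher and 2088 lower under quantile normalisation, against 2228 and 1328 here.

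In ICGN, 25 of the 41 were called higher at 8 weeks, against 6.35% of all genes, and 1 lower, Chil4, against 12.8%. The median was 0.85. Among these were Mpeg1 at 1.62 (adjusted p = 0.000113), Cybb at 1.57 (adjusted p = 2.35e-05), Itgax at 1.54 (adjusted p = 0.000135), Cd83 at 1.43 (adjusted p = 0.00114) and Clec7a at 1.42 (adjusted p = 0.000285). Csf1r was called higher in both strains, at 0.77 (adjusted p = 0.00778) in ICGN, and both calls were lost when the median of its probe sets was taken. All genes split into 1374 higher and 1438 lower when centred, against 787 and 1584 here, and 27 of the 41 genes were then called higher. Chil4 fell by 1.49 on the log2 scale (adjusted p = 0.0478), a call lost under 6 alternatives and without any 1 of ICGN replicates 1 and 2 of either age. The age comparisons share arrays with the strain comparisons, so they add no independent values.

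Genes that act with the 41 were taken from lists of their own. Of 30 further genes of mononuclear phagocytes, 21 were tested, and 19 rose and 0 fell at 8 weeks, none of those 21 being lower at an unadjusted p of 0.05 in limma, with a median of 1.72. At 4 weeks 11 rose, with a median of 0.90. Of all 18193 genes without any filter, 989 were called higher and 2945 lower at 8 weeks, and 144 and 129 at 4 weeks. Of the 30 listed genes, 27 were then tested, and 20 were called higher and 0 lower at 8 weeks, with a median of 1.32. At 4 weeks 10 of them were called higher and 0 lower, with a median of 0.73. The 3 with the largest fitted values at 8 weeks were Ms4a6c, a relative of Ms4a7, at 2.47 (adjusted p = 3.26e-06), Ctss, the antigen-processing protease cathepsin S, at 2.34 (adjusted p = 1.9e-06), and P2ry6, a nucleotide receptor, at 2.26 (adjusted p = 0.000903). P2ry6, Ms4a6d, Pirb and Tlr13 were at or below the array median in all 6 ICR arrays, so they passed the filter through ICGN arrays only and the size of their differences is uncertain. The complement genes C1qa, C1qb and C1qc, made largely by macrophages in tissues, were among the 19.

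Of the growth factors and their receptors, 4 were tested and 3 rose at 8 weeks. Csf1, a ligand of CSF1R, rose by 1.31 (adjusted p = 0.00179), Csf2rb, the shared beta chain of the GM-CSF receptor, by 1.25 (adjusted p = 0.00246) and Csf2ra by 1.18 (adjusted p = 0.00109). Il34, the other ligand of CSF1R, was at 0.00 (adjusted p = 0.557). Of the 6 tested counter-receptors and ligands, Vcam1, which binds leukocyte integrins on endothelium and injured tubules, rose by 3.63 (adjusted p = 1.51e-06), 12.4-fold. Icam1, the counter-receptor of LFA-1, rose by 1.20 (adjusted p = 0.000361) and Pros1, the ligand of MERTK and AXL, by 1.05 (adjusted p = 0.000214), while Icam2 fell by 0.60 on the log2 scale (adjusted p = 0.00128).

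Of the 13 tested signalling genes downstream of ITAM adaptors and integrins, 6 rose and 0 fell at 8 weeks, with a median of 0.68. None of the 13 was lower at an unadjusted p of 0.05 in limma. Fermt3, which activates leukocyte integrins, rose by 1.54 (adjusted p = 5.84e-05), the kinase Syk by 1.18 (adjusted p = 0.0382) and Was, an actin regulator, by 0.95 (adjusted p = 0.0242). Of 3 oxidase partners, Rac2 rose by 0.98 (adjusted p = 0.0065), and Rac1, which most cells express, was called lower at -0.27 (adjusted p = 0.0131). Of 10 myeloid transcription factors, Irf8 rose by 1.13 (adjusted p = 7.46e-05) and Zeb2 by 0.75 (adjusted p = 0.0416), and Nr1h3 was called lower at -0.24 (adjusted p = 0.0315). The lower calls of Icam2, Rac1 and Nr1h3 were not followed under the alternatives. Among all genes 26.0% were called lower at 8 weeks, and these 3225 lower calls became 1487 under the authors' scaling.

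Markers of other leukocytes were mostly too dim to test. Of 10 T cell genes on the array, 2 were tested and 6 were at or below the array median in all 12 arrays. Their summed signal was 99.8 to 140.0 in ICR and 125 to 199 in ICGN at 4 weeks, and 175 to 197 and 228 to 261 at 8 weeks. Of 11 neutrophil genes, 1 was tested and 6 were at or below the median throughout, with sums of 181 to 255 in ICR and 238 to 256 in ICGN at 4 weeks, and 223 to 264 and 165 to 252 at 8 weeks. Of 6 B cell genes, 1 was tested and 5 were at or below the median throughout, with sums of 81.8 to 110.4 in ICR and 91.7 to 131 in ICGN at 4 weeks, and 119 to 134 and 91.5 to 146 at 8 weeks. Of 6 NK cell genes, 1 was tested, with sums of 109 to 117 in ICR and 109 to 147 in ICGN at 4 weeks, and 128 to 163 and 174 to 222 at 8 weeks. None of these 5 tested genes was called in limma at either age. At an unadjusted p of 0.05, 1 T cell gene was higher at 4 weeks and none was at 8 weeks. The summed T cell and NK cell signals of the ICGN arrays at 8 weeks lay above those of ICR, and those of neutrophils and B cells overlapped. These sums include the genes too dim to test. The tested T cell genes differed by -0.12 to 0.08 at 8 weeks and the tested NK cell gene by 0.04. The part of these cells in the differences of shared genes such as Ptprc, Coro1a and Itgal was not tested.

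Of 3 plasma cell genes, Jchain, of secreted antibody, differed at 8 weeks by -2.22 (adjusted p = 0.000362) and Mzb1 by -0.79 (adjusted p = 0.00883), both called lower, with list sums of 254 to 274 in ICR and 244 to 287 in ICGN at 4 weeks, and 980.2 to 3869 and 481 to 656 at 8 weeks. Of 6 mast cell genes, Kit alone was tested, and rose by 0.92 (adjusted p = 0.00149). Kit is also made by cells that are not mast cells, and 4 of the 6 were at or below the array median throughout, with list sums of 170.0 to 208 in ICR and 193 to 266 in ICGN at 4 weeks, and 151 to 173 and 197 to 237 at 8 weeks. Of 5 platelet genes 4 were tested and 0 called at 8 weeks by limma, 2 being higher at an unadjusted p of 0.05, with sums of 421 to 501 in ICR and 385 to 495 in ICGN at 4 weeks, and 296 to 340.0 and 358 to 419 at 8 weeks. Of 6 further genes of dendritic cell subsets 3 were tested and 0 called at 8 weeks, none at an unadjusted p of 0.05, with sums of 196 to 236 in ICR and 185 to 223 in ICGN at 4 weeks, and 226 to 310.0 and 308 to 391 at 8 weeks. At 8 weeks the sums of mast cell and platelet genes lay above ICR in every ICGN array, those of plasma cell genes lay below, and those of dendritic cell subsets overlapped by little. The part of these cell types in the strain differences was not tested.

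Of the 7 proximal tubule genes, 5 fell at 8 weeks, among them Slc22a6, an organic anion transporter, by 0.95 (adjusted p = 0.000147), and 0 were called at 4 weeks in limma, 2 being lower at an unadjusted p of 0.05. Among all genes 26.0% were called lower at 8 weeks, and the calls of the tubule genes were not followed under other scalings. The part of a smaller share of tubule RNA in the rise of phagocyte genes was not tested. Of 4 podocyte genes, Synpo rose by 0.62 (adjusted p = 0.0312) at 8 weeks, and the list sums were 1463 to 1672 in ICR and 1840.2 to 2034 in ICGN at 4 weeks, and 1500.3 to 1560.2 and 1310.3 to 1513 at 8 weeks.

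**Figure D4:**
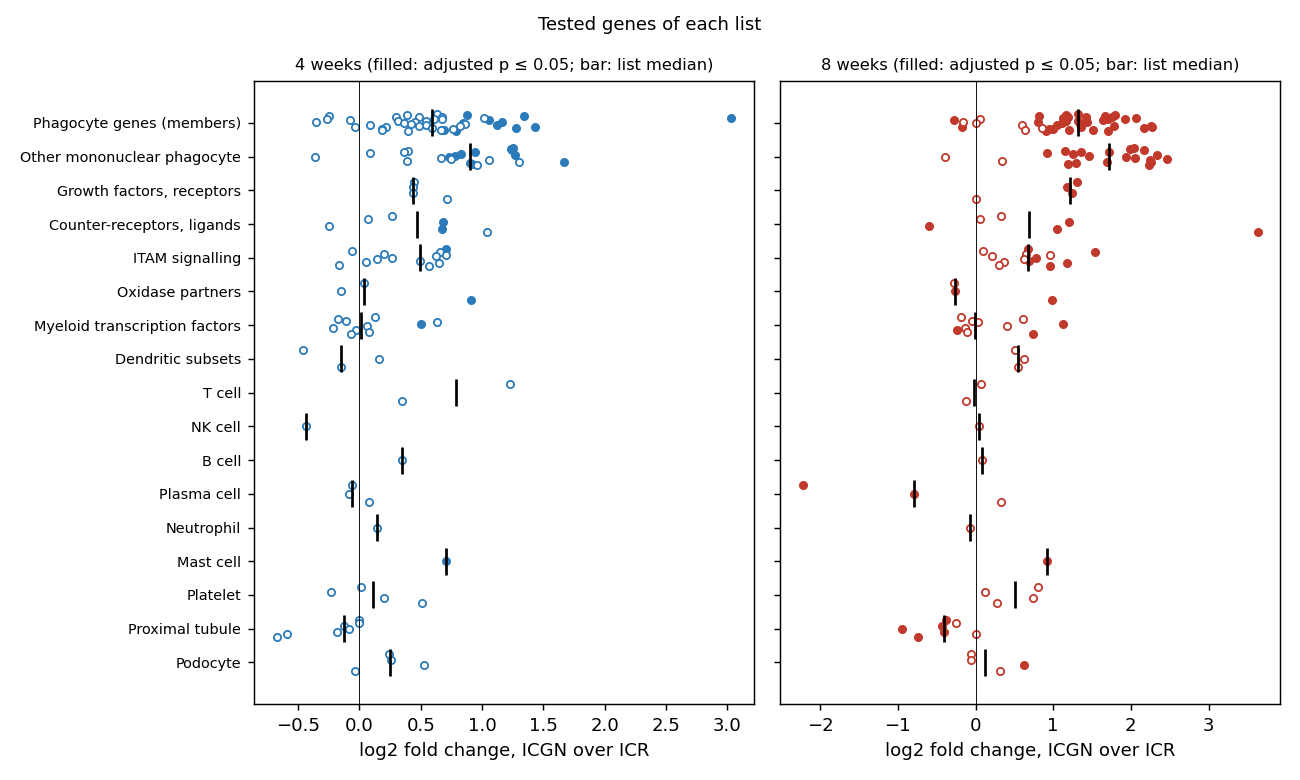
Strain difference of every tested gene of each list, ICGN over ICR as log2 fold change relative to the median gene, at 4 weeks (left) and 8 weeks (right, with a wider horizontal axis); filled points have an adjusted p of 0.05 or less and the bar is the list median. At 8 weeks the phagocyte genes and the other mononuclear phagocyte genes lie mostly to the right of 0, with medians of 1.32 and 1.72, and the proximal tubule genes mostly to the left.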

How the data were processed

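Total RNA of renal cortex, isolated on columns from tissue kept in RNAlater per the labels' protocols, was labelled with biotin and hybridised to 12 arrays. The deposited values are linear signal intensities of probe sets. The authors made them with MAS5, per the submitters' notes, and its version was not given in the sources used here. There were 45101 probe sets, including 64 controls. Of the others, 34945 had 1 gene symbol, while 932 had several and 9211 had none. By gene ID, 34741 of the named ones matched the RefSeq table of GRCm38.p6, which changed 0 symbols. Deposited array medians were 17.4 to 19.0 at 4 weeks and 75.3 to 108 at 8 weeks, so each array was scaled to their common median here.

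With R 4.3.3 and limma 3.58.1, 1 model of 4 group means was fitted to log2(signal + 11), with an offset at the 25th percentile of the scaled table, 8 residual degrees of freedom, a variance trend and Benjamini-Hochberg adjustment. Each gene was represented by its brightest probe set on average, with those ending in _x_at used last. The fit was tested on simulated data. The 3 arrays per group limit the precision. Same-numbered replicates of the strains correlated at -0.0927 to 0.0973 in their deviations, and differently numbered ones at -0.166 to 0.15. With 3 arrays per group these values cannot decide whether the numbers pair the arrays. A replicate block was fitted as an alternative. The 48 genes, their roles and all lists were chosen with earlier results of these data known. Every array is given for a fixed set of 22 genes, genes called lower, up to 6 called for the age difference, and the 4 largest at each age; the context lists name up to 3 genes, or those against their list, and C1qa, C1qb, C1qc and Il34 were named after their values were seen.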

Additional observations from a re-analysis of the deposited data

Results flagged for a closer look

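The strain difference of 7 genes differed between the ages by limma's test of the difference itself, relative to the median gene. Clec7a was 1.32 larger at 8 than at 4 weeks on the log2 scale (adjusted p = 0.0201), Cd83 1.46 (adjusted p = 0.0286), Axl 0.78 (adjusted p = 0.0346) and Mrc1 1.15 (adjusted p = 0.035). Lyz2 was 1.31 larger (adjusted p = 0.0477), Coro1a 1.04 (adjusted p = 0.0477) and Lst1 1.44 (adjusted p = 0.0483). In Axl and Lst1 the ICR arrays were called lower at 8 than at 4 weeks, while the ICGN arrays were not called between the ages. In Clec7a, Cd83, Mrc1, Lyz2 and Coro1a the ICGN arrays were called higher at 8 weeks and the ICR arrays were not called. The other Coro1a probe set past the filter was called higher over age in ICR too, at 0.62 (adjusted p = 0.0102). Its age difference, at 0.55 (adjusted p = 0.348), was not called. Cell types and tubule RNA that move with these values are given above, and their part was not tested.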

How the results depend on the processing

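Of the members' counts under the alternatives and with arrays left out, 141 stayed within 1.5 times and 43 did not. The 141 include the lower counts at 4 weeks and for the age difference, which were 0 here and in every setting. A filter at the 75th percentile tested only 19 of the genes and called 7 higher at 4 weeks, 14 at 8 weeks, 3 for the age difference and, over age, 13 higher in ICGN and 1 lower in ICR. The 2 lower calls at 8 weeks became 0 under quantile normalisation and under the authors' scaling, and 1 when centred on tested genes, without the trend or with the 2 groups alone. The 7 calls for the age difference became 2 without a filter and 4 with the median of probe sets or without the trend. With the 2 groups alone 1 gene was lower over age in ICR. The 1 lower call over age in ICGN became 0 with no offset, an offset from the deposited table (chosen after seeing the data), centring, no filter, the 75th percentile filter, no trend or the replicate block.

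With the replicate block, 9 genes were higher at 4 weeks, where Itgal and Ptprc lost the call, 34 at 8 weeks, where Sirpa gained it, and 2 were lower at 8 weeks. For the age difference 7 were above 0 again, of which 5 were shared: Lst1 and Lyz2 lost the call and Mpeg1 and Tyrobp gained it. Over the arrays left out in turn, counts at 4 weeks ranged from 7 to 12 higher. At 8 weeks they ranged from 28 to 32 higher and 0 to 3 lower. The age difference ranged from 1 to 5. Over age they ranged from 6 to 11 higher and 1 to 3 lower in ICR, and from 20 to 25 higher and 0 to 1 lower in ICGN. The setting without ICGN replicate 3 of 8 weeks was singled out after seeing the data.

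Differences near 0 turned sign. At 4 weeks Cyba was 0.0181 under quantile normalisation. With 1 array left out at 4 weeks, Sirpa ranged from -0.0438 without ICR replicate 1 to 0.33, Laptm5 from -0.11 without ICR replicate 3 to 0.22, and Mertk from -0.12 to 0.0286 without ICR replicate 3. At 8 weeks Csf1r was -0.0058 with the median of probe sets, and ranged from -0.0924 without ICR replicate 1 to 0.22. Flt3 was -0.0446 with no offset, -0.14 under quantile normalisation, -0.0517 under the authors' scaling, -0.0301 with no filter and -0.0139 with the median of probe sets. With 1 array left out at 8 weeks, Flt3 ranged from -0.16 without ICR replicate 1 to 0.27, being -0.15 without ICGN replicate 3 and -0.0878 without ICR replicate 3. The cause of these changes was not tested.

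Over all genes, 198 were called higher at 4 weeks, against 339 under quantile normalisation and 341 under the authors' scaling. The 1052 higher at 8 weeks were 562 with the 75th percentile filter. The 704 below 0 for the age difference were 450 without the trend. The 1328 lower over age in ICR were 805 with the 75th percentile filter, and the 787 higher in ICGN were 1300 under quantile normalisation. Genes at or below the array median have no reliable order here.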
